A study of Mus musculus with 23 samples.

Results

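Gfap, Vim, Nes and Synm encode 4 intermediate filament proteins of the astrocyte lineage, and their RNA was followed here in mouse cortex across age and across 3 substitutions of the histone variant H3.3. They were chosen by name, with earlier results of these data known, as the genes for glial fibrillary acidic protein, vimentin, nestin and synemin, and are 4 of the 39017 genes in the count table. Intermediate filaments are rope-like polymers that give a cell mechanical strength. In astrocytes GFAP and vimentin form the main network. Nestin is a filament protein of neural progenitors and synemin a large partner that links filaments to other structures. Both are built into filaments together with vimentin. Radial glia and newly formed astrocytes are known for vimentin and nestin, mature astrocytes gain GFAP, and a rise of GFAP, often with vimentin, is the classical sign of reactive astrocytes after injury or in neurodegeneration.

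Total RNA was extracted from pulverised cortex of 22 mice and sequenced after depletion of ribosomal RNA. Wild-type animals (WT, genotype Hf3fa+/+ in the labels at 10 weeks and H3f3a +/+ at postnatal day 7) were compared with animals carrying 1 mutant and 1 normal copy of the gene, in which glycine 34 was replaced by arginine (G34R; Hf3fa+/G34R at 10 weeks and H3f3a G34R/+ at day 7), valine (G34V; Hf3fa+/G34V) or tryptophan (G34W; Hf3fa+/G34W). The 10-week cortices came from 6 WT, 3 G34R, 3 G34V and 2 G34W mice, which were males by label apart from G34W replicate 2 (labelled female, with a title that opens like those of the males). The day-7 cortices came from 4 WT and 4 G34R pups, and replicates 1 and 2 of each genotype were males and replicates 3 and 4 females. The labels name no Cre driver, strain or litter, and each replicate is an animal with its own number. The series asks what a change at this residue does to recruitment of the DNA methyltransferase DNMT3A and to the survival of neurons.

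Library totals were 32.3 to 90.1 M counts (M, mega) in the 10-week and 28.4 to 53.5 M in the day-7 libraries, and the lowest count of any of the 4 genes in a library was 200 (Nes in G34W replicate 1). The edited gene H3f3a did not pass the test in any substitution at 10 weeks (log2 fold changes of -0.07, -0.12 and -0.11 for G34R, G34V and G34W) and was lower in G34R at day 7 (-0.25, edgeR adjusted p = 0.0428, and up to 0.211 with 1 animal left out). Whole-gene counts do not show the substitution itself. The 10-week libraries fell into 2 sets by the share of counts from mitochondrial protein-coding genes. All G34R libraries lay in a low set (0.89% to 1.03%) with WT replicates 1 and 4 and 1 library of WT replicate 3, and all G34V and G34W libraries lay in a high set (1.12% to 1.36%) with WT replicates 2, 5 and 6 and the other library of replicate 3. The labels name no batch. Levels are given as CPM, counts per M of a library total multiplied by its TMM normalisation factor. They are given per kilobase of exon where genes are compared with each other. The factor was 0.8087 in G34W replicate 1, against 0.9355 to 1.003 in the other 10-week animals. This low factor raised the levels of that animal. By library total alone its Gfap, Vim, Nes and Synm read 140.97, 16.57, 6.2 and 33.14 CPM. Changes are log2 fold changes with their standard error (SE) from edgeR, called at a Benjamini-Hochberg adjusted p under 0.05 over all genes tested, and all 4 genes passed the filter on low counts in every comparison.

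The start sites of the 4 genes are shown because the study concerns DNA methylation, which in mammals falls mainly on CpG dinucleotides, and the genes differ in how many they hold. The 150 bases before each RefSeq start site (GRCm38.p6, written 5′ to 3′ on the strand of the gene) follow with every CpG in capitals. For Gfap the window is chr11:102897201-102897350 on the minus strand, for Vim chr2:13574161-13574310 on the plus strand, for Nes chr3:87970943-87971092 on the plus strand and for Synm chr7:67759743-67759892 on the minus strand. The windows of Gfap and Vim lie inside the gene bounds of GENCODE M21, which begin further upstream. The counts of CpG and of motifs hold for the RefSeq start only, and other starts were not searched.
Gfap: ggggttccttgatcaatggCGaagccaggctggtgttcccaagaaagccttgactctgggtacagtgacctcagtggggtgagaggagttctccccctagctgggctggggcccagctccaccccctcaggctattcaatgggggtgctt
Vim: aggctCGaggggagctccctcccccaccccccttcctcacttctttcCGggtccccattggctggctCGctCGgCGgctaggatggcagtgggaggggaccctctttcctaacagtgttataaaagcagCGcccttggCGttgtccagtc
Nes: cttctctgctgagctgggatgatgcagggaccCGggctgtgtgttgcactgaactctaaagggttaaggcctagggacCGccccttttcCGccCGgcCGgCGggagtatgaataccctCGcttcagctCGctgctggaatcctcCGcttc
Synm: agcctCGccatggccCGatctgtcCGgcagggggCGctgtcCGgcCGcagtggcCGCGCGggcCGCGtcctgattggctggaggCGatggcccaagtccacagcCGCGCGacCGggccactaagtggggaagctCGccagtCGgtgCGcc

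Over the full 250 bases before the start, Gfap held 2 CpG, Vim 8, Nes 15 and Synm 23, against a median of 6 over 32851 mouse promoters in the same table. The GC share was 55.6% for Gfap, 58.4% for Vim, 58.8% for Nes and 70.0% for Synm, against a median of 52.4%. Gfap was thus the poorest in CpG of the 4 and Synm the richest. Methylation was not measured in these libraries. A search of both strands for the TATA letters TATAAA (held by 12.4% of all promoters) found 1 match, in Vim 32 bases before the start. The short NFI site TTGGC (41.5%) was found at 2 places in Vim and at 1 in Synm, each time within 100 bases of the start, and the CCAAT letters (33.8%) overlapped it at 1 place in each of these genes. GC box letters GGGCGG (32.7%) occurred at 2 places in Nes, and the E box CANNTG (66.2%) in Synm. The STAT letters TTCNNNGAA (7.02%), the AP-1 letters TGANTCA (6.75%), the SOX letters ACAAAG (16.5%) and the kappaB core GGGACT (15.8%) were found in none of the 4 windows, and none of the 9 patterns was found in that of Gfap. A match is only a run of letters, and its absence says nothing of what binds there or elsewhere in the gene.

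Gfap RNA was higher in the cortex of all 3 substitutions at 10 weeks, with the highest level in G34R. Gfap (ENSMUSG00000020932; GRCm38 chromosome 11, 102887336 to 102900912, minus strand) encodes the filament protein by which astrocytes are usually recognised. In WT at 10 weeks its level ran from 112 to 143 CPM with a median of 128 over the 6 animals. The 3 G34R animals stood at 463, 457 and 431 CPM, the 3 G34V animals at 214, 220.1 and 251 CPM, and the 2 G34W animals at 174 and 189 CPM. No animal of one genotype reached into the range of another, so the order was WT, G34W, G34V, G34R. By library total alone, G34W replicate 1 read 140.97 CPM, just above the highest WT value of 135.56 CPM (replicate 6). The size of its gap from WT thus depends on its normalisation factor.

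Against WT (127.6 ± 12.5 CPM, SD, n = 6) the G34R animals (450.4 ± 16.9 CPM, n = 3) were 3.53-fold higher, with a log2 value of 1.82 (SE 0.0723, edgeR adjusted p = 7.41e-11). Gfap had the smallest p of the 21274 genes tested in this comparison, of which 5.61% were called, 2.95% higher and 2.66% lower. The G34V animals (228.4 ± 19.6 CPM, n = 3) were 1.79-fold higher than WT (log2 0.84, SE 0.0733, edgeR adjusted p = 2.15e-06), where 4.25% of genes were called (1.57% higher, 2.68% lower). The G34W animals (181.8 ± 10.4 CPM, n = 2) were 1.42-fold higher (log2 0.51, SE 0.0848, edgeR adjusted p = 0.0069), where 1.61% were called (0.564% higher, 1.05% lower). The 3 comparisons share their WT animals. Without any 1 animal the log2 values stayed between 1.79 and 1.86 for G34R, 0.77 and 0.88 for G34V, and 0.44 and 0.56 for G34W. The G34W call was lost with limma-voom (0.50, adjusted p = 0.0733) and when runs of consecutive animal numbers were fitted as a block, the number-run block (0.37, edgeR adjusted p = 0.0602). In bulk tissue more astrocytes and more Gfap RNA in each astrocyte cannot be told apart.

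Within the low mitochondrial set alone, G34R against WT gave 1.94 for Gfap (edgeR adjusted p = 2.38e-05). Within the high set G34V against WT gave 0.81 (edgeR adjusted p = 0.000199) and G34W against WT 0.48 (edgeR adjusted p = 0.048). The 2 libraries of WT replicate 3, made from the same animal, lay in different sets and read Gfap at 98.6 CPM in the low and 125 CPM in the high set, a 1.26-fold gap that is smaller than each of the differences from WT.

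**Figure D1:**
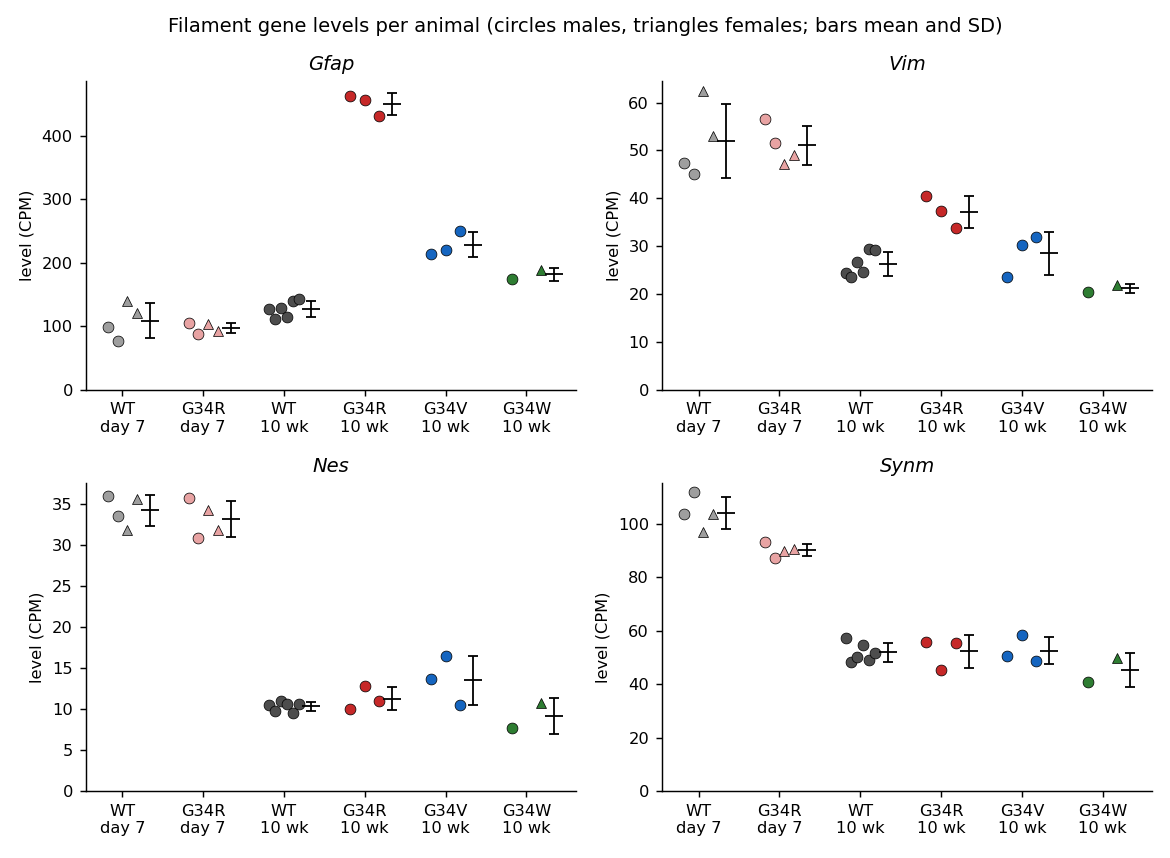
Levels of Gfap, Vim, Nes and Synm in CPM (y axes, each from 0) in every animal of the 6 groups (x axes; circles males, triangles females), with the mean and SD of each group as bars. The Gfap points of the 3 substitutions at 10 weeks lie above all WT points, from 174 CPM upwards, while the 10-week points of Nes and Synm overlap between genotypes.

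Differences between the substitutions were tested directly. Gfap was 1.97-fold higher in G34R than in G34V (log2 0.98, SE 0.0875, edgeR adjusted p = 1.78e-05), a comparison in which 0.23% of genes were called. It was 2.48-fold higher in G34R than in G34W (log2 1.31, SE 0.101, edgeR adjusted p = 5.71e-06; 1.88% called), and had the smallest p of all genes there. The G34V and G34W animals differed by 0.33 (SE 0.0981, 95% interval 0.13 to 0.54, edgeR adjusted p = 0.187; 0.15% called), which did not pass although their ranges did not overlap, and which the number-run block called (0.65, edgeR adjusted p = 0.0316). No library set holds G34R together with G34V or G34W, so these differences cannot be told apart from the sets by a comparison within a set. With the set as a block in the fit, the Gfap difference was 1.12 for G34R against G34V (edgeR adjusted p = 0.00233) and 1.45 for G34R against G34W (edgeR adjusted p = 0.000557). That fit took the 2 libraries of WT replicate 3 as separate samples, and its set effect rested on WT libraries alone. The substitutions differ in the residue at position 34, which is positively charged in arginine, small and aliphatic in valine and bulky and aromatic in tryptophan.

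Vim rose in G34R and did not pass the test in the other substitutions. Vimentin (ENSMUSG00000026728; chromosome 2, 13573927 to 13582826, plus strand) is the filament protein of radial glia and immature astrocytes, and in adult brain also of endothelium, pericytes, ependyma and fibroblasts. In WT at 10 weeks its level ran from 23.5 to 29.5 CPM with a median of 25.7. G34R animals had 40.4, 37.2 and 33.8 CPM, all above the highest WT animal. G34V animals had 23.5, 30.3 and 31.8 CPM and G34W animals 20.5 and 21.8 CPM, so G34V overlapped WT and both G34W animals lay just below it.

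On the log2 scale Vim in G34R was higher by 0.50 (SE 0.0935, 1.41-fold, edgeR adjusted p = 0.00275), and 0.61 within the low set (edgeR adjusted p = 0.00226). G34V differed from WT by 0.12 (SE 0.0952, 95% interval -0.08 to 0.32, edgeR adjusted p = 0.612) and G34W by -0.31 (SE 0.115, interval -0.55 to -0.07, edgeR adjusted p = 0.18). G34R exceeded G34W by 0.81 (SE 0.128, edgeR adjusted p = 0.00421, or 0.0514 with limma-voom). The gap of 0.38 between G34R and G34V did not pass (SE 0.11, interval 0.15 to 0.61, edgeR adjusted p = 0.197), nor did that of 0.43 between G34V and G34W (SE 0.127, interval 0.17 to 0.70, edgeR adjusted p = 0.184). With Gfap, 2 of the 4 genes were called in G34R at 10 weeks, and 1 of 4 in G34V and in G34W. Over all genes 5.61%, 4.25% and 1.61% were called in these comparisons, and the G34W call is the one lost with limma-voom and the number-run block.

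Nes did not pass in any comparison of genotypes with edgeR over all animals. Nestin (ENSMUSG00000004891; chromosome 3, 87971078 to 87980451, plus strand) is a filament protein of dividing neural progenitors and, in adult brain, of some vascular and reactive cells. Its 10-week level ran from 9.55 to 11.1 CPM in WT, was 10.0, 12.8 and 10.98 CPM in G34R, 13.7, 16.4 and 10.5 CPM in G34V, and 7.66 and 10.8 CPM in G34W. All 3 substitutions overlapped WT, and the spread was wider in G34V (SD 2.97) and G34W (SD 2.19) than in WT (SD 0.563).

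The log2 differences of Nes from WT were 0.12 in G34R (SE 0.128, interval -0.16 to 0.39), 0.39 in G34V (SE 0.127, interval 0.12 to 0.65) and -0.16 in G34W (SE 0.154, interval -0.49 to 0.16), with edgeR adjusted p of 0.711, 0.109 and 0.614. The G34V value moved with single animals. It was 0.54 without G34V replicate 3 (edgeR adjusted p = 0.0225) and 0.22 without G34V replicate 2 (edgeR adjusted p = 0.57), and limma-voom called it (0.45, adjusted p = 0.0252). The libraries of WT replicate 3 read Nes at 8.02 and 11.4 CPM, a 1.42-fold gap within 1 animal that is larger than the 3 differences from WT over all animals. Within the high set alone, where all G34V libraries lie, the difference was 0.36 (edgeR adjusted p = 0.302).

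Synm did not pass in any comparison of genotypes at 10 weeks. Synemin (ENSMUSG00000030554; chromosome 7, 67730160 to 67759742, minus strand) binds filaments of vimentin, GFAP or desmin and is a marker of some reactive astrocytes. It overlaps Ttc23 and Gm45102 on the other strand by 84 and 426 exonic bases, and since the strand setting of the counting is not given, reads there cannot be assigned with certainty. Its level ran from 48.5 to 57.2 CPM in WT, was 56.0, 45.4 and 55.6 CPM in G34R, 50.8, 58.3 and 48.8 CPM in G34V, and 41.0 and 49.9 CPM in G34W. Differences from WT were 0.01 in G34R (SE 0.0842, interval -0.17 to 0.19), 0.02 in G34V (SE 0.0843, interval -0.16 to 0.20) and -0.19 in G34W (SE 0.0994, interval -0.40 to 0.02), with edgeR adjusted p of 0.972, 0.948 and 0.33. A change of Synm in G34R of the size seen for Vim (0.50) lies outside this interval.

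**Figure D2:**
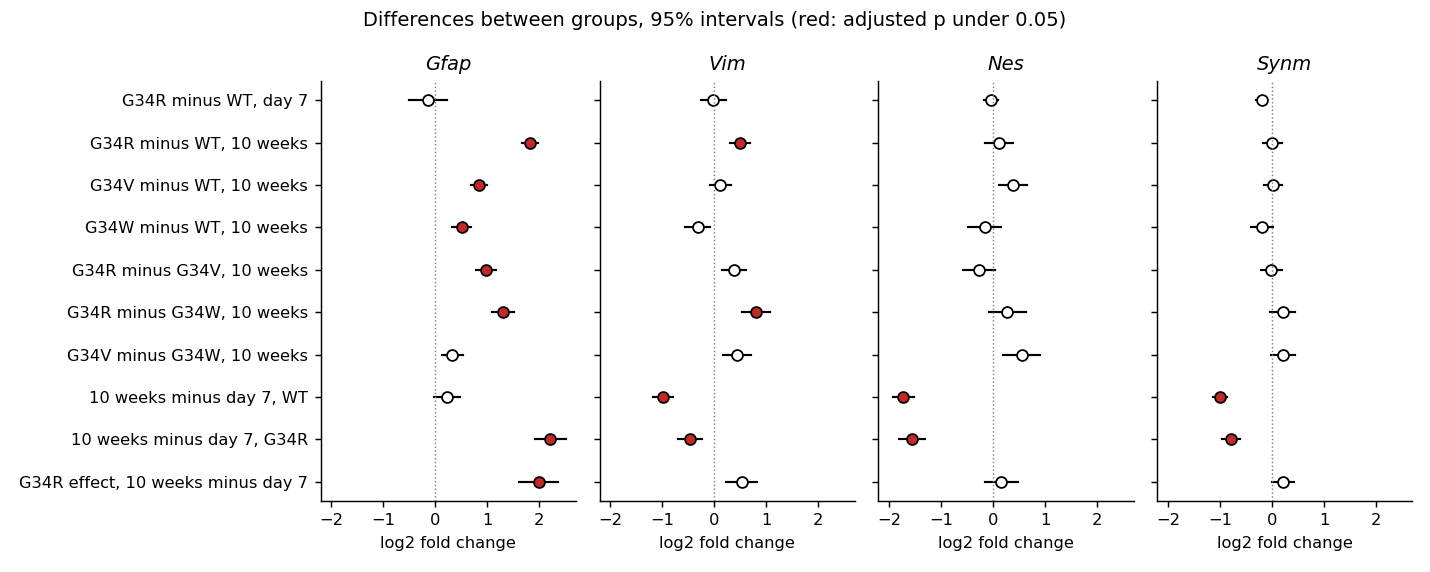
Log2 fold changes (x axes) of the 4 genes in each of 10 comparisons (rows), with 95% intervals, red where the edgeR adjusted p is under 0.05. Gfap is red in all 3 comparisons with WT at 10 weeks and open at day 7, whereas Nes and Synm are red only between ages.

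Expressed per kilobase of exon, the 4 genes together made 43.95 ± 3.43 CPM per kb in the 6 adult WT animals, 122.9 ± 4.5 in the 3 of G34R, 68.9 ± 4.85 in the 3 of G34V and 54.7 ± 3.8 in the 2 of G34W. Gfap made up 66.4% to 70.4% of this sum in WT, 86.5% to 87.4% in G34R, 76.2% to 80.4% in G34V and 78.1% to 79.5% in G34W. The share of Gfap thus did not separate G34V from G34W, though their sums did not overlap. In WT the order per kilobase was Gfap (30.3 ± 2.97), Synm (6.55 ± 0.432), Vim (5.54 ± 0.538) and Nes (1.61 ± 0.0875), where the ranges of Synm and Vim touched (6.11 to 7.21 against 4.95 to 6.21). In G34R Vim (7.83 ± 0.696) stood above Synm (6.597 ± 0.757), and their ranges only just did not meet (7.12 to 8.51 against 5.72 to 7.06).

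The ratio of Gfap to Vim per kilobase was 5.46 ± 0.223 in WT at 10 weeks (range 5.23 to 5.87), 13.7 ± 0.709 in G34R (12.9 to 14.3), 9.11 ± 1.09 in G34V (8.16 to 10.3) and 9.66 ± 0.12 in G34W (9.57 to 9.74). Each substitution lay above every WT animal. G34V and G34W overlapped. These ratios are a description and were not tested.

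**Figure D3:**
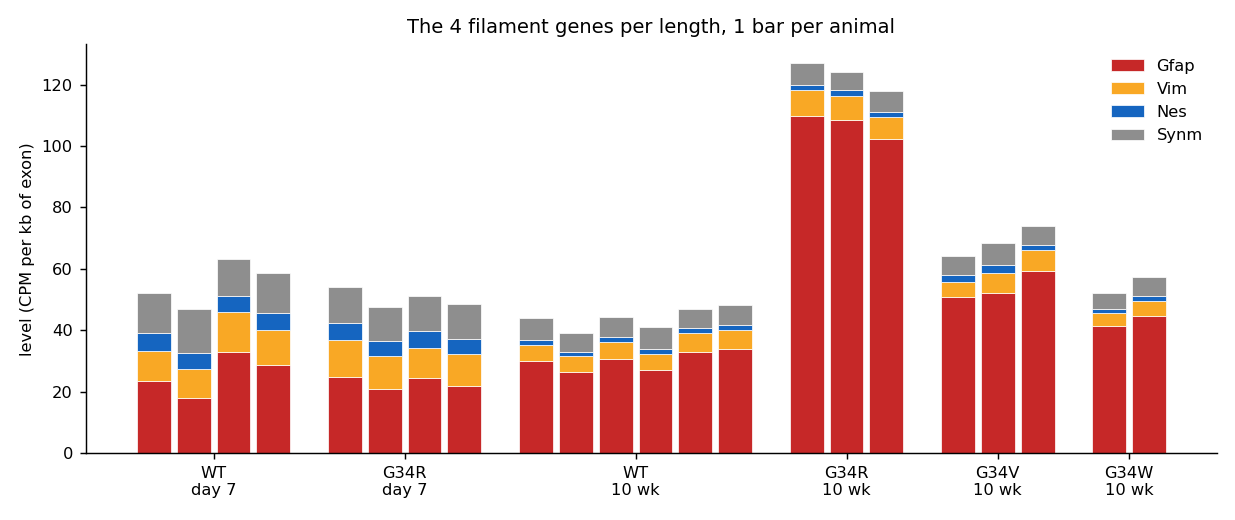
Level of the 4 genes in CPM per kilobase of exon (y axis), stacked in 1 bar per animal and grouped by genotype and age (x axis). The Gfap segment takes 38.5% to 52.1% of the bar in WT at day 7, 66.4% to 70.4% in WT at 10 weeks and 86.5% to 87.4% in G34R at 10 weeks.

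At postnatal day 7, when astrocytes are still being formed, none of the 4 genes was called between G34R and WT by edgeR (1 of 4 at an unadjusted p under 0.05). Gfap read 99.0 and 76.2 CPM in male and 139 and 122 CPM in female WT pups, and 105 and 87.9 CPM in male and 103 and 92.5 CPM in female G34R pups. The genotypes overlapped, with a spread in WT (SD 27.4) that exceeded that in G34R (SD 8.23), and the difference was -0.13 (SE 0.154, 95% interval -0.50 to 0.23, edgeR adjusted p = 0.922). The upper bound of that interval lies below the increase in each substitution at 10 weeks. Of 20451 genes, 0.308% were called (0.112% higher, 0.196% lower).

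Synm was the gene of the 4 with the smallest p at day 7. WT pups had 103.9, 112, 97.0 and 103.9 CPM and G34R pups 93.1, 87.4, 89.9 and 90.5 CPM, so every G34R pup lay below every WT pup. The difference of -0.20 (SE 0.0443, 0.871-fold) had an unadjusted p of 0.00098 and an edgeR adjusted p of 0.147. DESeq2 called it (-0.20, adjusted p = 0.0421). Vim (45.1 to 62.4 CPM in WT, 47.2 to 56.5 in G34R; -0.01, SE 0.106) and Nes (31.8 to 35.9 CPM in WT, 30.9 to 35.8 in G34R; -0.04, SE 0.0631) overlapped throughout, with edgeR adjusted p of 0.991 and 0.953.

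The sexes were looked at separately after the data had been seen, with 2 pups each. In males the G34R effect on Vim was 0.24, with 56.5 and 51.5 CPM against 47.4 and 45.1 CPM in WT, and in females it was -0.26, with 47.2 and 48.9 CPM against 62.4 and 53.1 CPM. For Gfap the values were 0.15 in males and -0.41 in females. The difference between the sexes had an unadjusted p of 0.00254 for Vim and 0.0349 for Gfap and an edgeR adjusted p of 0.787 for both, and no gene of 20451 was called for it by edgeR (1285 at an unadjusted p under 0.05).

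The G34R effect on Gfap differed between the ages. The effect at 10 weeks exceeded that at day 7 by a log2 value of 1.99 (SE 0.179, edgeR adjusted p = 6.93e-06), in a test that called 1.16% of 22417 genes. For Vim the difference of effects was 0.53 (SE 0.144, interval 0.23 to 0.83, edgeR adjusted p = 0.0868), which DESeq2 called (0.52, adjusted p = 0.0283) and which also passed without WT day-7 replicate 2 (0.59, edgeR adjusted p = 0.0411). For Nes and Synm it was 0.16 (SE 0.153) and 0.22 (SE 0.103), with edgeR adjusted p of 0.77 and 0.435.

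Between day 7 and 10 weeks Vim, Nes and Synm fell in WT while Gfap did not pass the test. Vim was 52.0 ± 7.7 CPM in the 4 pups and 26.3 ± 2.55 CPM in the 6 adults, a log2 change of -0.99 (SE 0.0925, edgeR adjusted p = 2.24e-09). Nes fell from 34.2 ± 1.9 to 10.4 ± 0.563 CPM (-1.72, SE 0.0972, edgeR adjusted p = 9.41e-14) and Synm from 104.2 ± 6.03 to 52.0 ± 3.43 CPM (-1.004, SE 0.0659, edgeR adjusted p = 1.72e-12). For each of these genes every WT animal at 10 weeks lay below every WT pup. The background is wide here, since 67.7% of genes were called between these ages (33.3% higher, 34.4% lower).

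Gfap in WT was 109.0 ± 27.4 CPM at day 7 and 127.6 ± 12.5 CPM at 10 weeks, a difference of 0.23 (SE 0.118, interval -0.02 to 0.47, edgeR adjusted p = 0.0956). All WT animals at 10 weeks were males, and with only males at both ages the difference was 0.54 (edgeR adjusted p = 0.000353). It also passed without the day-7 female with the highest level (WT replicate 3; 0.37, edgeR adjusted p = 0.00574). In G34R the change of Gfap with age was 2.21 (SE 0.139, edgeR adjusted p = 2.67e-11), and Vim (-0.46, SE 0.111), Nes (-1.56, SE 0.122) and Synm (-0.78, SE 0.0806) fell with edgeR adjusted p of 0.0011, 6.29e-11 and 8.46e-09, where 63.8% of genes were called. As a share of the 4 genes per kilobase, Gfap went from 46.2% ± 5.89 (n = 4) to 68.7% ± 1.54 (n = 6) in WT and from 45.7% ± 1.72 (n = 4) to 86.8% ± 0.493 (n = 3) in G34R. The day-7 libraries had mitochondrial shares of 0.73% to 0.8848%, against 0.8855% or more in the 10-week libraries. These ranges adjoin without overlap, and age cannot be told apart from this difference between the libraries.

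Other genes of the filament system were taken from lists. They share some members with each other, such as Osmr, and were chosen with earlier results on these samples known, so their counts are a description. Of 20 other intermediate filament genes tested at 10 weeks, 1 was higher and 3 lower in G34R (median -0.16, against 0.00 over all genes). EdgeR called 2.95% of all genes higher and 2.66% lower there. Krt222, a keratin-like gene expressed in brain, was 42.3 ± 2.0 CPM in WT and lower in G34R, at 27.4 ± 1.6 CPM (-0.63, SE 0.0661, edgeR adjusted p = 8.72e-06), and was also lower in G34V (-0.53, SE 0.0658, edgeR adjusted p = 7.77e-05) and in G34W (-0.52, SE 0.0773, edgeR adjusted p = 0.00288, or 0.0558 without G34W replicate 1). Its WT range of 39.0 to 44.8 CPM lay above every animal of the substitutions.

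None of the genes for neuronal filaments was called higher in G34R. In G34R, Nefh, the heavy neurofilament subunit, fell by 0.42 (SE 0.115, edgeR adjusted p = 0.0431, lost in 11 of 21 alternatives), and Prph, which encodes peripherin, a filament of peripheral neurons, fell by 1.09 (SE 0.311, edgeR adjusted p = 0.0495, also lost in 11). The light and medium subunit genes Nefl (-0.24, SE 0.0689) and Nefm (-0.18, SE 0.102) and alpha-internexin, Ina (-0.25, SE 0.124), did not pass, with edgeR adjusted p of 0.0563, 0.4 and 0.314. The keratin gene Krt12 was 0.45 higher in G34R (SE 0.0974, edgeR adjusted p = 0.00877, but 0.0757 without G34R replicate 2) and 0.58 lower in G34V (log2 -0.58, SE 0.103, edgeR adjusted p = 0.00273), and differed between them by 1.03 (edgeR adjusted p = 0.00031). All 3 Krt12 calls were lost with the number-run block. Krt10 was higher in G34V (0.51, SE 0.121, edgeR adjusted p = 0.0228, or 0.107 within the high set). In all, 1 of the 20 rose and 2 fell in G34V, and Krt222 alone was called in G34W. EdgeR called 4.25% of all genes in G34V and 1.61% in G34W.

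Of 25 genes for linkers, chaperones and enzymes that act on filaments, 1 rose in G34R and none fell with edgeR (DESeq2 called 1 higher and 2 lower), a share near the 5.61% called over all genes. The gene was Hspb8, a small heat shock protein, at 15.6 ± 1.24 against 11.3 ± 0.516 CPM (0.46, SE 0.0723, edgeR adjusted p = 0.00057), and it was also higher in G34R than in G34V (0.59, edgeR adjusted p = 0.00499, lost with the number-run block and with the library-set block). Plec, the plectin gene whose product ties filaments to other cell structures (-0.17, SE 0.104), and Cryab, a chaperone that accumulates with GFAP in Rosenthal fibres (0.00, SE 0.0924), did not pass, with edgeR adjusted p of 0.427 and 0.998. Padi2, an enzyme that converts arginines of GFAP and of myelin proteins to citrulline, was 25.7 ± 1.67 CPM in WT and fell in G34V (-0.45, SE 0.088, edgeR adjusted p = 0.00541) and G34W (-0.72, SE 0.106, edgeR adjusted p = 0.00272, or 0.0528 without G34W replicate 1). It was the only one of the 25 called in those comparisons, and in G34R it stood at 0.01 (SE 0.0857). Padi2 is also expressed in oligodendrocytes, and its call in G34W was lost with the number-run block too.

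Among 33 tested genes of the pathways known to switch on Gfap (the interleukin-6 family, JAK-STAT, BMP, TGF-beta and Notch), 6 rose and none fell in G34R (8 and 0 with DESeq2), with a median of 0.10. Of all genes, edgeR called 2.95% higher and 2.66% lower in that comparison. Which cells carried these changes, and whether they bear on Gfap here, was not tested. Osmr, the oncostatin M receptor, went from 3.07 ± 0.515 to 5.84 ± 0.865 CPM (0.93, SE 0.153, edgeR adjusted p = 0.000855). Stat3, the factor best known for activating Gfap, rose by 0.31 (SE 0.0631, edgeR adjusted p = 0.00556, and without G34R replicate 2 0.0661). The TGF-beta receptor genes Tgfbr2 (0.53, SE 0.0928) and Tgfbr1 (0.26, SE 0.0508) rose as well, with edgeR adjusted p of 0.00144 and 0.00381. The shared receptor gene Il6st (0.04, SE 0.0754, edgeR adjusted p = 0.859) and the feedback inhibitor Socs3 (0.31, SE 0.22, edgeR adjusted p = 0.501) did not pass.

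In G34V 2 of these 33 genes rose, Osmr (0.82, SE 0.154, edgeR adjusted p = 0.0041, lost with the number-run block) and the interleukin-6 receptor gene Il6ra (0.62, SE 0.148, edgeR adjusted p = 0.0229, or 0.159 within the high set). Of all genes, edgeR called 1.57% higher in G34V and 0.564% in G34W. Stat3 in G34V was 0.19 (SE 0.0635, edgeR adjusted p = 0.116). None of the 33 passed in G34W with edgeR, DESeq2 or limma-voom (6 at an unadjusted edgeR p under 0.05). At day 7 none of 31 tested passed in G34R with any of the 3 tools (3 at an unadjusted edgeR p under 0.05), and the gap between the G34R effects at the 2 ages was called for Osmr and Stat3, among others (1.04 and 0.35, edgeR adjusted p of 0.00962 and 0.0362). The Stat3 call was lost in 13 of 26 alternatives, and the Osmr call without G34R replicate 1 at 10 weeks (edgeR adjusted p = 0.0578).

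Of 22 transcription factor and chromatin genes of astrocyte formation, 2 rose and 1 fell in G34R, where 2.95% of all genes were called higher and 2.66% lower. Neurog2, a factor that favours neurons over astrocytes, was 1.01 CPM against 0.339 in WT (1.58, SE 0.328, edgeR adjusted p = 0.00618, but 0.0767 without G34R replicate 2), and Hopx, expressed in radial glia and astrocytes, rose by 0.45 (SE 0.107, edgeR adjusted p = 0.0197, or 0.061 within the low set). Nfia, which drives the start of astrocyte formation, fell by 0.35 (SE 0.0858, edgeR adjusted p = 0.0199, or 0.223 within the low set). Sox9, an astrocyte factor, did not pass in G34R (0.15, SE 0.0967, edgeR adjusted p = 0.474) or G34W (0.38, SE 0.111, edgeR adjusted p = 0.0968). The call in G34V was Sox8 (-0.33, SE 0.079, edgeR adjusted p = 0.0239, or 0.124 within the high set), and in G34W Neurog2 (1.81, SE 0.373, edgeR adjusted p = 0.022, or 0.0964 within the high set) and Sox8 (-0.53, SE 0.0941, edgeR adjusted p = 0.00969, or 0.0726 without G34W replicate 1) were called.

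Most genes that mark resting astrocytes did not pass the test. Of 26 homeostatic astrocyte genes 3 rose and none fell in G34R (11 at an unadjusted edgeR p under 0.05, median 0.03), where 2.95% of all genes were called higher. None passed in G34V with any of the 3 tools (2 at an unadjusted edgeR p under 0.05, median -0.01), where edgeR called 4.25% of all genes. In G34W 1 rose (10 at an unadjusted edgeR p under 0.05), where 0.564% of all genes were called higher. Of the 21274 genes tested, 3851 in G34R, 3321 in G34V and 3647 in G34W had an unadjusted p under 0.05. The 3 in G34R were Clu (600.1 ± 28.8 to 833 ± 15.3 CPM; 0.47, SE 0.0587, edgeR adjusted p = 5.18e-05) and Apoe (1014 ± 41.2 to 1261 ± 67.5 CPM; 0.31, SE 0.0513, edgeR adjusted p = 0.000843), secreted carriers of lipids, and Mlc1, a membrane protein of astrocyte end-feet (0.29, SE 0.0599, edgeR adjusted p = 0.00589, but 0.0643 without G34R replicate 1). The water channel gene Aqp4 (0.25, SE 0.092, edgeR adjusted p = 0.137) and the glutamate transporter gene Slc1a2 (-0.27, SE 0.0814, edgeR adjusted p = 0.0647) did not pass, the latter below 0. In G34W the gene was Slc4a4, a bicarbonate transporter (0.41, SE 0.0837, edgeR adjusted p = 0.022, lost in 8 of 20 alternatives). The potassium channel gene Kcnj10, named after its value was seen, stood above Gfap in G34W but did not pass (0.73, SE 0.193, edgeR adjusted p = 0.0895). The summed level of the 26 genes was 9502 to 10350 CPM in WT, 9882 to 10250 in G34R, 9631 to 9814 in G34V and 9829 to 10720 in G34W. Each substitution overlapped WT, while every G34V animal lay below those of G34R and G34W.

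Of 36 reactive astrocyte genes tested, 13 rose and 1 fell in G34R (median 0.41). Among all genes, 2.95% were called higher and 2.66% lower there. In bulk tissue the cells that carried these changes cannot be told apart. Serpina3n, a secreted protease inhibitor, went from 11.5 ± 1.5 to 28.3 ± 1.3 CPM (1.30, SE 0.109, edgeR adjusted p = 8.98e-07), the complement gene C3 from 0.538 ± 0.241 to 3.98 ± 0.916 CPM (2.92, SE 0.282, edgeR adjusted p = 4e-06) and Ggta1, a galactosyltransferase, from 3.80 ± 0.747 to 8.07 ± 0.14 CPM (1.09, SE 0.137, edgeR adjusted p = 5.69e-05). Cd14, a receptor for bacterial lipopolysaccharide that microglia also express, rose by 1.38 (SE 0.19, edgeR adjusted p = 0.000142). The gene that fell was S100a10 (-0.46, SE 0.12, edgeR adjusted p = 0.0308, lost in 10 of 21 alternatives), named after its value was seen. Lcn2, often named with Gfap as a reactive gene, was at most 0.185 CPM in every WT, G34R and G34V animal at 10 weeks and 0.348 and 0.46 CPM in the G34W animals (edgeR adjusted p = 0.181).

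In G34V 5 of the 36 rose and 1 fell (median 0.21), and 2 rose and 2 fell among 35 within the high set. Among all genes, edgeR called 1.57% higher and 2.68% lower in G34V, and 0.564% higher and 1.05% lower in G34W. With the number-run block 1 of the 36 rose and none fell. C3 rose by 1.97 (SE 0.293, edgeR adjusted p = 0.000537), Osmr as given above, and Serpina3n by 0.54 (SE 0.112, edgeR adjusted p = 0.00815, or 0.054 within the high set). The others were Cxcl10 and Gbp2, named after their values were seen, whose calls were lost without G34V replicate 3 (edgeR adjusted p of 0.237 and 0.272). Cd109 fell in G34V (-1.08, SE 0.192, edgeR adjusted p = 0.00249, lost with the number-run block) and was the only one of the 36 called in G34W (-1.10, SE 0.232, edgeR adjusted p = 0.0235, or 0.0628 within the high set). Serpina3n in G34W was 9.99 ± 1.66 CPM, within reach of the WT range of 9.47 to 13.0 CPM. Directly compared, Serpina3n was higher in G34R than in G34V (0.76, edgeR adjusted p = 0.0208, lost in 5 of 17 alternatives) and than in G34W (1.498, edgeR adjusted p = 0.00014).

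**Figure D4:**
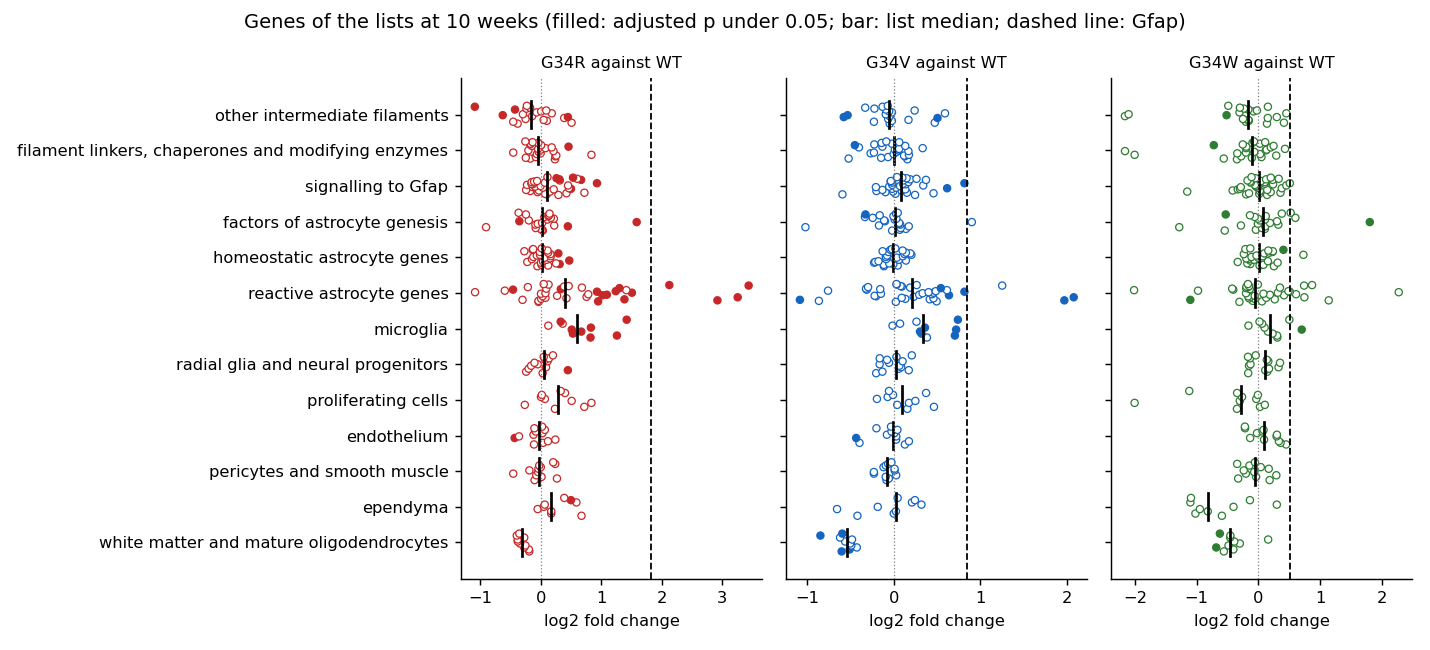
Log2 fold changes against WT at 10 weeks (x axes) of each gene in the lists named on the y axis, for G34R, G34V and G34W, filled where the edgeR adjusted p is under 0.05, with the list median as a bar and Gfap as a dashed line. In G34R the reactive astrocyte and microglia lists have medians of 0.41 and 0.60, and the homeostatic astrocyte list one of 0.03, all left of Gfap at 1.82.

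Markers of other cells that could carry filament RNA were read beside these results. In G34R none of 12 pericyte and smooth muscle genes, none of 10 fibroblast genes and none of 10 proliferation genes passed with edgeR, DESeq2 or limma-voom (1, 0 and 3 at an unadjusted edgeR p under 0.05), 1 of 12 endothelial genes was lower (Esam, -0.43, edgeR adjusted p = 0.021, and 0.209 within the low set), and 1 of 10 ependymal and 1 of 13 radial glia genes were higher. EdgeR called 2.95% of all genes higher and 2.66% lower in G34R. Within the low set, where Vim was 0.61 higher, 2 of 10 fibroblast genes (list median 0.497), 1 of 12 pericyte and 1 of 12 endothelial genes were called higher, and with the number-run block 1 of 10 fibroblast genes was. Summed endothelial markers were 214 to 263 CPM in WT and 213 to 242 CPM in G34R, pericyte markers 193 to 251 and 215 to 258 CPM, and proliferation markers 40.9 to 49.5 and 39.5 to 51.1 CPM. None of the marker genes of these lists was at 0 throughout a group. The G34R range overlapped the WT range for each of these sums, and the part of these cells in the Vim result was not tested. Of the genes marking other cells and regions, none of 9 for oligodendrocyte precursors, of 10 for choroid plexus, of 10 for striatum and of 10 for neurons passed in G34R with edgeR (2 neuronal genes and no other at an unadjusted p under 0.05, and 1 neuronal gene lower with DESeq2), and 1 of 10 hippocampal genes rose and 1 fell. Choroid plexus genes summed to 16.3 and 216 CPM in the 2 G34W animals, against 157 to 979 CPM in WT.

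Microglial markers were higher in G34R and G34V. Of 10 genes 8 rose in G34R (median 0.60), 6 in G34V (0.34) and 1 in G34W (Fcrls, lost in 6 of 20 alternatives, the number-run block and the high set alone among them), with sums of 370 to 411 CPM in WT, 606 to 681 in G34R, 451 to 564 in G34V and 414 to 474 in G34W. The shares of all genes called higher were 2.95%, 1.57% and 0.564%. At day 7, with no call for the 4 filament genes, 3 of the 10 were higher in G34R (Cx3cr1, Fcrls and P2ry12), and the sums were 211 to 237 CPM against 170 to 191 in WT. These calls were lost in 6 to 8 of 15 alternatives, and 0.112% of all genes were called higher at day 7. Summed markers of white matter and mature oligodendrocytes were 4545 to 5953 CPM in WT, 3423 to 4413 in G34R, 2846 to 3712 in G34V and 3070 to 4696 in G34W, with 0, 4 and 2 of 10 genes called lower by edgeR in G34R, G34V and G34W, 1, 8 and 4 by DESeq2, and none in any substitution with the number-run block. The shares of all genes called lower by edgeR were 2.66%, 2.68% and 1.05%. White matter astrocytes carry more GFAP than those of grey matter. The part of microglia and of white matter in the filament results was not tested.

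Between day 7 and 10 weeks in WT the wider families moved in both directions. Of 20 other filament genes 9 rose and 6 fell (median 0.57), with Nefh (1.72, SE 0.112), Nefl (1.07, SE 0.0761) and Nefm (0.77, SE 0.115) up and the lamin gene Lmnb1 (-2.49, SE 0.0808) and Ina (-0.60, SE 0.119) down, all with edgeR adjusted p of 0.000183 or below. The neurofilament subunit genes Nefh, Nefl and Nefm thus rose while Vim, Nes and Ina fell. Homeostatic astrocyte genes rose in 20 of 26 cases and fell in 3 (median 0.74), among them Glul, which makes glutamine (1.80, SE 0.0434), and Slc1a2 (1.44, SE 0.0824), and their sum went from 4466 to 4879 CPM up to 9502 to 10350 CPM. Proliferation genes fell in 9 of 10 cases (median -2.98), with Mki67 at -3.62 (SE 0.143), and 6 of 13 radial glia genes fell and 3 rose. At day 7 none of the 19 other filament genes, 25 linker genes and 26 homeostatic genes passed between G34R and WT with any of the 3 tools (4, 0 and 1 at an unadjusted edgeR p under 0.05), and 1 of 33 reactive genes did (B3gnt5, a glycosyltransferase, -0.55, lost in 7 of 15 alternatives).

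The genes whose level followed each filament gene most closely were ranked by Pearson correlation over the 14 animals at 10 weeks, among 13654 protein-coding genes. The animals share genotype groups, so the correlations mostly mirror the differences between groups. For Gfap they were Naip2 (r = 0.987), Tbxas1 (0.977), Igfbp5 (0.969), Cd68 (0.969) and Itgax (0.968), and Vim followed Gfap less closely (0.742), Nes and Synm hardly (0.263 and 0.054). For Vim the leading genes were Ddx58 (0.93), Ctsc (0.901) and Clu (0.891), for Nes Shmt1 (0.901) and Stk38l (0.894), and for Synm Znrf3 (0.84) and Ippk (0.834). Over the 8 pups Gfap and Vim had a correlation of 0.8, and the genes closest to Gfap were others, led by Btbd17 (0.969) and Aass (0.952).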

How the data were processed

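The authors deposited unnormalised read counts per Ensembl gene for 23 libraries of mouse cortex. The submitters' processing notes name Trimmomatic 0.32, STAR 2.3.0e, bedtools 2.27.1, featureCounts 1.4.4 and mm10. No source used here gives the annotation release or the strand setting. Groups followed the labels of genotype and age. WT replicate 3 of the adults (animal 2498) had 2 libraries, whose counts were added to give 22 animals. Y-linked genes, Xist and Tsix were removed. No count column was left unmapped. Coordinates and exon lengths came from GENCODE M21 (GRCm38), start sites from RefSeq (GRCm38.p6), with all 4 genes matched.

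Counts were tested with edgeR 4.0.16 in R 4.3.3 (robust quasi-likelihood, TMM, filterByExpr, Benjamini-Hochberg over all genes tested) in fits of the 14 animals at 10 weeks (21274 genes), the 8 at day 7 with sex as a covariate (20451 genes) and all 22 for age (22417 genes). The SE is the log2 fold change divided by the root of F, and intervals are at 95%. Scripts were tested on simulated data. P-values weigh a difference between groups against the spread between these animals. That spread was estimated over all groups of a fit, with information shared between genes. Where the libraries of animal 2498 were kept apart, they counted as separate samples.

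The 4 genes and all gene lists (6 of filament, linker, signalling, factor, homeostatic and reactive astrocyte genes and 13 of cell type and region markers) were chosen with earlier results of these data known. Named genes were, per list, up to 4 with the smallest adjusted p in G34R at 10 weeks, up to 3 in G34V, in G34W, in G34R at day 7 and between ages in WT, a fixed set of well-known genes, and those called or counted singly, named after their values were seen. Like patterns are the 5 genes (mean of at least 1 CPM) with the highest Pearson r of log2(CPM + 0.5). Of the list genes, 2 had no match in the table. The values of 1 further list gene are not reported here. Alternatives were RLE scaling, other filters, DESeq2 1.42.0, limma-voom with sample quality weights (limma 3.58.1), the libraries of animal 2498 kept apart, mitochondrial and rRNA genes left out, only the groups compared, a block for each run of consecutive animal numbers (number-run block), a sex covariate added or dropped, only males, and each animal left out. The block on the library sets, the fits within a set and the sex by genotype fit were chosen after seeing the data.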

Additional observations from a re-analysis of the deposited data

Results flagged for a closer look

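The effect of G34R on Gfap differed between the ages. The log2 fold change at 10 weeks exceeded that at day 7 by 1.988 (SE 0.179), a gap that passed its own test (edgeR adjusted p = 6.93e-06), with all 3 G34R animals above all 6 WT animals at 10 weeks and overlapping groups at day 7. The effect of G34R on Vim at day 7 went opposite ways in the sexes. Both G34R males lay above both WT males and both G34R females below both WT females, and the female effect minus the male effect was -0.4985 on the log2 scale. That interaction, fitted after the data had been seen, had an edgeR adjusted p of 0.787 with 2 animals per sex and genotype. No animal stood far from its group in the 12 pairs of gene and group with 4 to 10 animals, where about 1 in 20 would by chance. The 10-week groups of the substitutions, with 2 or 3 animals each, were too small to be looked at.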

How the results depend on the processing

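The calls of Gfap in G34R and G34V against WT, in G34R against G34V and G34W, with age in G34R and for the age difference of the G34R effect, of Vim in G34R against WT, and of Vim, Nes and Synm between ages kept their direction and passed under every alternative run. Gfap in G34W was lost with limma-voom (0.503) and with the number-run block (0.366), and Vim in G34R against G34W with limma-voom (0.79). Calls gained included Nes in G34V with limma-voom (0.454), Gfap in G34V against G34W with the number-run block (0.653), Synm at day 7 with DESeq2 (-0.197), the age difference of the G34R effect on Vim with DESeq2 (0.525), and Gfap between ages in WT with only males (0.54). Leaving 1 animal out also gained calls of Nes in G34V, of the age difference on Vim and of Gfap between ages in WT, as given above. Synm near 0 changed sign in G34R against G34V under a filter of 1 CPM in 2 animals (0.00281), with only the 2 groups compared (0.000263) and with the library-set block (0.0163), and under the number-run block in G34R (-0.0105) and G34V (-0.00269) against WT. With 1 animal left out, Synm ranged from -0.045 to 0.102 in G34R, -0.0614 to 0.0682 in G34V and -0.0646 to 0.0819 between them, Nes from 0.222 to 0.538 in G34V, -0.445 to 0.0482 in G34W and -0.0786 to 0.0047 at day 7, Vim from -0.0873 to 0.0859 at day 7 and 0.429 to 0.598 for the age difference of the G34R effect, and Gfap between ages in WT from 0.0878 to 0.367. The cause of these shifts was not tested. No paired analysis was possible because the labels give no replicate numbers shared between groups, and the number-run block rests on neighbouring animal numbers, which the labels do not call litters. Counts of called genes went from 343 to between 33 (limma-voom) and 901 (DESeq2) in G34W, from 905 to 414 with the number-run block and 519 within the high set in G34V, from 49 to between 4 (number-run block) and 265 (DESeq2) for G34R against G34V, from 400 to between 19 and 1113 for G34R against G34W, from 32 to between 10 (1 animal left out) and 309 (sex covariate) for G34V against G34W, from 63 to between 5 (without WT replicate 4) and 209 (DESeq2) at day 7, and from 261 to between 117 (only males) and 454 (DESeq2) for the age difference of the G34R effect. With 1 animal left out, the lowest count in G34W was 68 (without replicate 1) and the highest 590 (without replicate 2). Without G34R replicate 1 the count in G34R at 10 weeks was 693, against 1193, and without G34V replicate 1 that in G34V was 497. With 2 animals, 1 of them female, G34W had the largest SE of the 3 comparisons with WT at 10 weeks for each of the 4 genes.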
